A study of Mus musculus with 6 samples.

Results

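Early growth response (Egr) transcription factors and feedback inhibitors of the kinase ERK were followed in 3 kinds of mouse CD4 T helper cells. The set holds 10 genes, namely Egr1, Egr2, Egr3, Nr4a1, Dusp2, Dusp4, Dusp5, Dusp6, Spry1 and Spry2, of 20292 genes named on the array. Every probe whose current or older gene symbol is one of these was taken, which gave 15 of the 45281 probes, for 8 of the 10 genes. No probe carries the name of Dusp5 or Spry1, so these were not analysed here. The genes were chosen by their known roles and selected on earlier results of these same arrays, among them the intensities of Egr1, Egr2 and Egr3, which were higher in Th9 than in Th1 cells, so their levels and differences are a description of these arrays and support nothing further.

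RNA was measured on 6 Illumina bead arrays, of which 2 held Th9, 2 held Th1 and 2 held Th17 cells. All 3 kinds were donor helper cells of the C57BL/6 background, recovered from the spleen of tumour-bearing mice 12 days after transfer by sorting on CD45.1 and CD4, and no group without a tumour or of untransferred cells was compared. The labels name the kinds only as Th9, Th1 and Th17 cells; how each was polarised, the tumour and the age of the mice are not given in the sources used here. The second array of each kind is labelled a repeat, with no word on whether it came from other animals, so the spread between arrays may be technical.

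When a T cell receptor is engaged, Ras and a chain of kinases activate ERK, which enters the nucleus and switches on immediate early genes within minutes. Egr1, Egr2 and Egr3 are zinc-finger transcription factors of this class, and Egr2 and Egr3 are known in mouse T cells for restraining activation and inducing inhibitors of signalling. Dual-specificity phosphatases (Dusp genes) and Sprouty proteins (Spry genes) are also induced by ERK and act back on it: the phosphatases remove phosphates from ERK, and Sproutys dampen signalling toward it.

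RefSeq promoter windows were on hand for 7 of the 10 genes (GRCm38.p6), and 3 are shown because their genes behaved differently on the arrays. Egr2 and Dusp6 stood highest in Th9 cells, and Dusp2 hardly differed after normalization. Each line gives the 250 bases before the start of transcription, 5′ to 3′ on the plus strand, at chr10:67537619-67537868 for Egr2, chr10:99262981-99263230 for Dusp6 and chr2:127335909-127336158 for Dusp2. Capitals mark a CArG box (the site of serum response factor) and the core of a cyclic AMP response element (TGACGT, here read on the opposite strand) in Egr2, and the core of an Egr site (GNGGGCG) in Dusp2.
Egr2: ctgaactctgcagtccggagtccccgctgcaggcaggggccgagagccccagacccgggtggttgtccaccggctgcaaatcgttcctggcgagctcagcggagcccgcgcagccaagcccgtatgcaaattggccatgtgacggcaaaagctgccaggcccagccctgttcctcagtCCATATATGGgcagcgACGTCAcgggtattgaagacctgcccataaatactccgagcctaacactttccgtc
Dusp6: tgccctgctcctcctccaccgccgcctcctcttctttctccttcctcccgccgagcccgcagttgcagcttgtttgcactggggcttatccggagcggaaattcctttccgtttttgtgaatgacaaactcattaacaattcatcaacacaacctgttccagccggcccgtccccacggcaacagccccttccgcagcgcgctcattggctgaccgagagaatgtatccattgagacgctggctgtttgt
Dusp2: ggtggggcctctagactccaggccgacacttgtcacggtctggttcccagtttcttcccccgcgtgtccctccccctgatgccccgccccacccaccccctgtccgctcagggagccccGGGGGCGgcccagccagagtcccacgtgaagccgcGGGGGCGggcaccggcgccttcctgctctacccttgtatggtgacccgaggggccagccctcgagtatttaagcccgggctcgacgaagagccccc

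The CArG box of Egr2 lies 72 to 63 bases and the cyclic AMP response element core 56 to 51 bases before that start. Egr2 has 5 windows for its several starts, some of which overlap and so share these sites. The same pair of motifs, with a CArG box more, stands before Dusp5, where the boxes lie 82 to 73 and 72 to 63 bases and the cyclic AMP response element core 56 to 51 bases upstream. A CArG box was found in 1.47% and TGACGT in 6.47% of all 32851 windows of the same length, on either strand. The Egr site core was found in 28.3% of windows, among them those of Dusp2, Spry1, Nr4a1 and Dusp5 and the most upstream window of Egr2. The Dusp6 and Spry2 windows held none of the 6 motifs searched, the others being the ETS site GGAAGT (19.7% of windows), the AP-1 site TGANTCA (6.75%) and TATAAA (12.4%). A match describes letters in these windows and does not show that a factor binds there.

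A probe counted as above background on an array when its deposited intensity exceeded a noise threshold of 5.84 to 6.95 units, depending on the array, and probes above it on at least 2 arrays were kept for the comparisons. Of the 15 probes 12 were kept, for 6 genes. Differences below are log2 fold changes with standard errors (n = 2 arrays per kind) from a limma fit to normalized log2 intensity, made after adding an offset of 50 units, which shrinks the differences of dim probes. A probe is said to have passed when its Benjamini-Hochberg adjusted p over all 22460 kept probes was under 0.05.

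**Figure D1:**
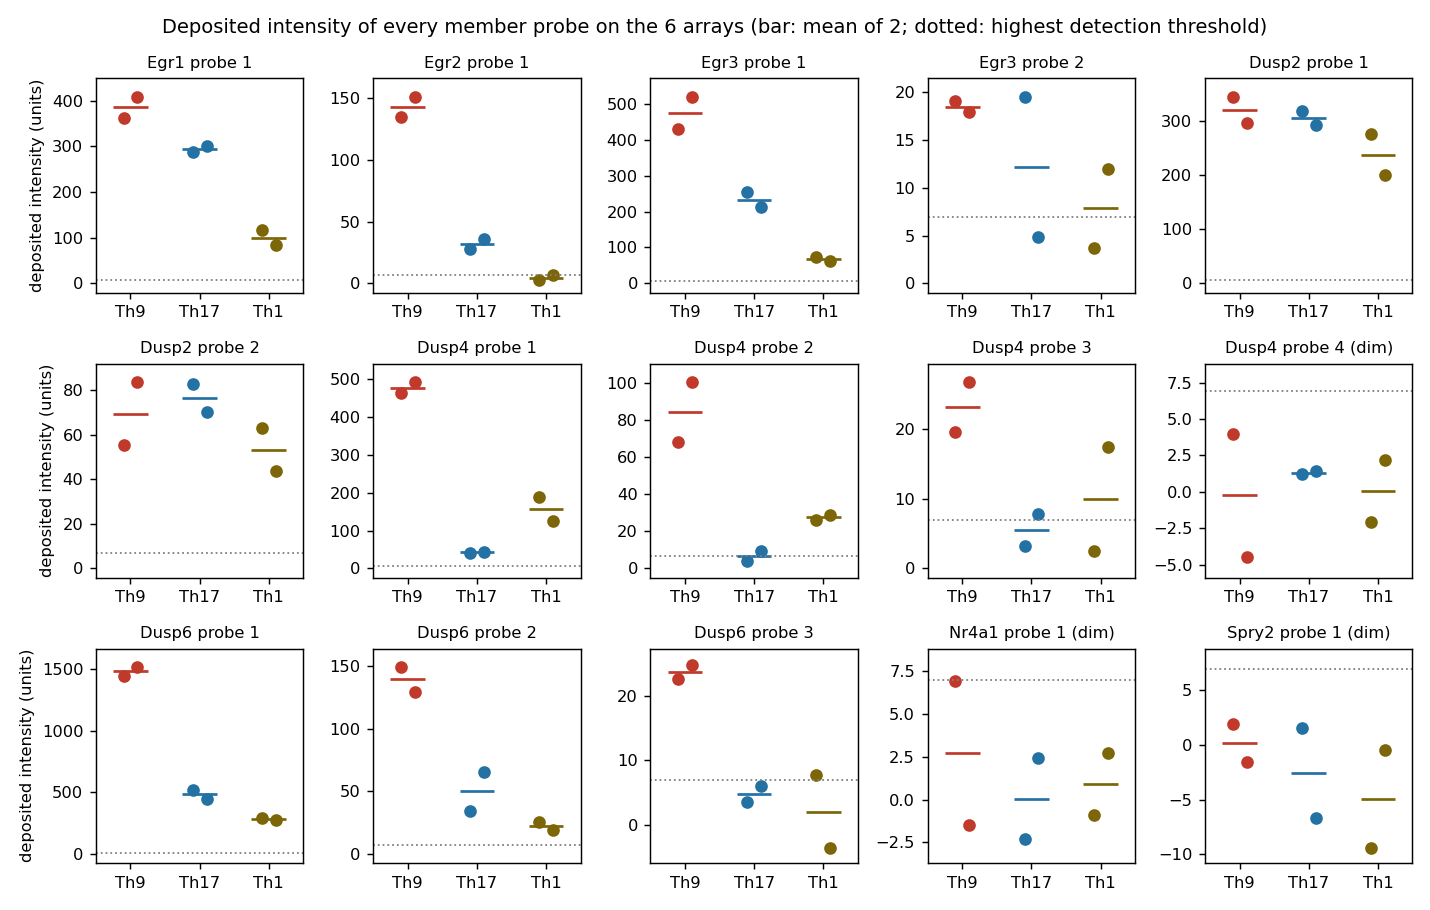
Deposited intensity (linear units, before normalization) of each of the 15 member probes on the Th9, Th17 and Th1 arrays; points are arrays, bars the mean of 2, the dotted line the highest detection threshold (6.95 units), and probes of a gene are numbered from the brightest. Egr1, Egr2, Egr3, Dusp4 and Dusp6 stand highest in Th9 on their brightest probe, Egr1 the least so, with means of 385 units in Th9 and 294.1 in Th17. The means of the brighter Dusp2 probe are 320.05 units in Th9, 305.05 in Th17 and 237.65 in Th1. In these units its Th9 arrays lie above those of Th1. The probes of Nr4a1 and Spry2 and the dimmest of Dusp4 lie near 0.

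The Egr factors stood highest in Th9, lower in Th17 and lowest in Th1 cells. Egr1 had intensities of 362.3 and 407.7 units in Th9, 286.8 and 301.4 in Th17, and 116.5 and 84 in Th1. No array of one kind overlapped with one of another. The Th9 level exceeded that of Th1 by a log2 fold change of 1.18 ± 0.11 (SE) and that of Th17 by 0.38 ± 0.11, and Th17 exceeded Th1 by 0.79 ± 0.11. The difference to Th17 did not pass without Th9 replicate 1 (0.36), Th9 replicate 2 (0.40) or Th17 replicate 1 (0.31), and passed in 7 of 14 other settings.

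Egr3 repeated this order on its brighter probe, with 430.7 and 519.3 units in Th9, 254.1 and 212 in Th17, and 72.5 and 62 in Th1. The arrays of the 3 kinds again stayed apart. The log2 fold change was 1.79 ± 0.11 for Th9 against Th1, 0.92 ± 0.11 for Th9 against Th17 and 0.87 ± 0.11 for Th17 against Th1. A dimmer Egr3 probe read 19.1 and 17.9 units in Th9, 19.5 and 4.8 in Th17 and 3.7 and 12 in Th1. Its arrays overlapped between kinds after normalization, and its differences of 0.14 ± 0.12, 0.12 ± 0.12 and 0.02 ± 0.12 in the same comparisons did not pass.

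Egr2 followed the same order and came close to background in Th1. It read 135.2 and 151.1 units on the Th9 arrays, 27.5 and 36.3 in Th17, and 2.4 and 6.6 in Th1, where 1 of the 2 arrays was above its threshold. The kinds did not overlap. The log2 fold change was 1.55 ± 0.11 against Th1 and 1.11 ± 0.11 against Th17, and Th17 exceeded Th1 by 0.44 ± 0.11, which did not pass without Th1 replicate 1 (0.39) or Th17 replicate 2 (0.35). Because the Th1 level is so near 0, the size of the difference to Th1 rests on the offset, and it was 2.33 with an offset of 16 and 4.82, no longer passing, without background correction.

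**Figure D2:**
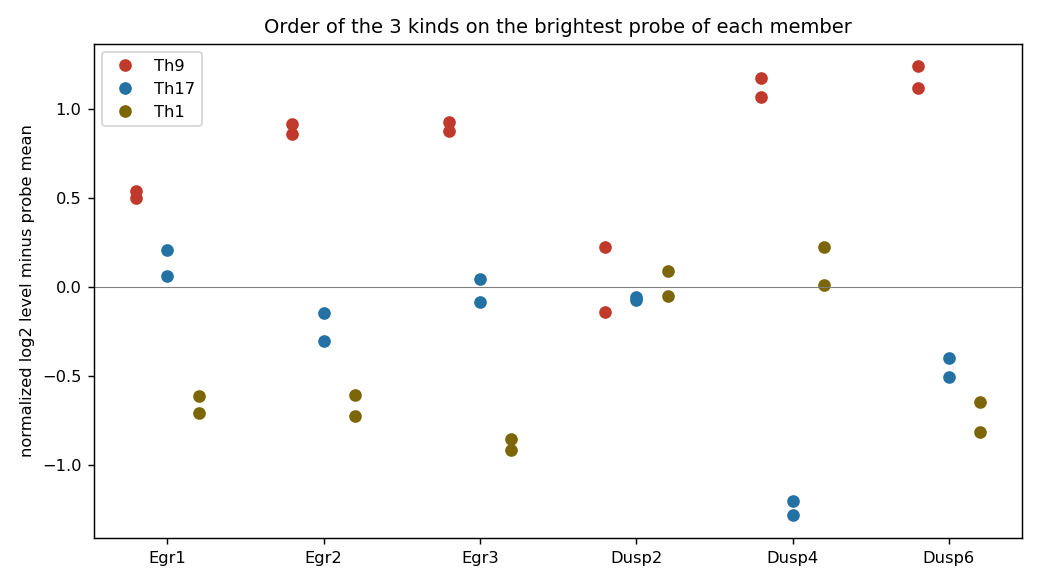
Normalized log2 level of the brightest probe of each kept member, minus that probe's mean over the 6 arrays; each point is an array, coloured by kind. Egr1, Egr2, Egr3 and Dusp6 run from Th9 down through Th17 to Th1, Dusp4 runs from Th9 through Th1 to Th17, and the Dusp2 arrays of Th9 span those of the other kinds.

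Among the phosphatases, Dusp6, a cytoplasmic phosphatase selective for ERK, was the one whose difference between Th9 and Th1 was seen on every probe. Its brightest probe read 1450 and 1517.1 units in Th9, 521.8 and 443.2 in Th17 and 287.8 and 275.5 in Th1. Both Th9 arrays stood far above the other 4. The log2 fold change was 1.91 ± 0.11 against Th1 and 1.63 ± 0.11 against Th17. Th17 and Th1 differed by 0.28 ± 0.11, which did not pass, although their arrays did not overlap. That small difference depends on scaling, since with arrays scaled to their median it was 0.63 and passed.

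The other 2 Dusp6 probes were dimmer and pointed the same way. The middle probe read 149.1 and 129.7 units in Th9, 34.2 and 65.5 in Th17 and 25.6 and 18.5 in Th1, and gave 1.11 ± 0.13 against Th1 and 0.87 ± 0.13 against Th17. The dimmest read 22.6 and 24.8 units in Th9, 3.6 and 6.1 in Th17 and 7.8 and -3.6 in Th1. On that probe Th9 was the kind with both arrays above background, and the difference passed against Th1 (0.39 ± 0.12) but not against Th17 (0.33 ± 0.12). The call against Th1 ended without Th9 replicate 1, without Th9 replicate 2 and without Th1 replicate 2, at 0.37, 0.39 and 0.25.

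Dusp4, a nuclear phosphatase that acts on ERK and other mitogen-activated kinases, was also highest in Th9 but in another order, with Th17 lowest. Its brightest probe read 461.8 and 490.8 units on the Th9 arrays, 188.7 and 124.6 in Th1, and 40.9 and 44.1 in Th17. The kinds did not overlap. Th9 exceeded Th1 by 1.0 ± 0.11 and Th17 by 2.37 ± 0.11, and Th17 against Th1 was -1.36 ± 0.11. So Th17 lay above Th1 for the Egr factors and below it for Dusp4, and the calls passed on both sides.

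A dimmer Dusp4 probe gave that order too, with 68.4 and 100.5 units on the Th9 arrays, 26.2 and 28.9 in Th1, and 4 and 9.3 in Th17. Its log2 fold changes were 0.52 ± 0.11 for Th9 over Th1, 1.04 ± 0.11 for Th9 over Th17 and -0.52 ± 0.11 for Th17 over Th1. The difference to Th1 did not pass without Th9 replicate 2 (0.43), and that between Th17 and Th1 did not pass without Th17 replicate 1 (-0.45). A further probe, at 19.6 and 26.8 units in Th9 and at most 17.5 elsewhere, passed in 0 of the 3 comparisons. The remaining Dusp4 probe, between -4.5 and 4 units, was above background on 0 of 6 arrays.

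Dusp2, a nuclear phosphatase abundant in activated lymphocytes, did not share the pattern. Its brighter probe read 343.8 and 296.3 units in Th9, 317.4 and 292.7 in Th17 and 275 and 200.3 in Th1. In deposited units Th9 lay above Th1, but after normalization the arrays overlapped, and the log2 fold changes were 0.03 ± 0.12 for Th9 over Th1, 0.11 ± 0.12 for Th9 over Th17 and -0.08 ± 0.12 for Th17 over Th1. Over 14 other settings the first ranged from -0.16 to 0.36 and passed in 0, so its direction is not settled. The dimmer probe read 55.4 and 83.7 units in Th9, 82.9 and 70.5 in Th17 and 63 and 43.8 in Th1. Its differences lay between -0.05 and 0.01, with standard errors of 0.11, and 0 of 3 passed.

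Nr4a1, the orphan nuclear receptor Nur77 that is widely used as a reporter of T cell receptor signalling, could not be compared. Its probe read 6.9 and -1.5 units on the Th9 arrays, -0.9 and 2.7 in Th1 and -2.3 and 2.4 in Th17, with 1 of 6 arrays above its threshold. Spry2, an inhibitor of receptor tyrosine kinase and antigen receptor signalling, lay between -9.4 and 1.9 units and was above background on 0 of 6 arrays. A dim probe bounds the signal of that probe only, since the bright and dim probes of Dusp4 and Dusp6 show how far probes of 1 gene can differ in brightness.

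Of the 12 kept probes, 8 passed as higher and 0 as lower when Th9 was set against Th1, where 4.09% of all kept probes were higher and 3.79% lower. When Th9 was set against Th17, 7 were higher and 0 lower, beside 7.45% and 7.5% of all kept probes. Between Th17 and Th1, 3 were higher in Th17 and 2 lower, beside 5.99% and 5.77%. At an unadjusted p under 0.05 in limma, 8, 9 and 6 of the 12 differed in either direction. The normalized arrays of the 2 kinds did not overlap for 8, 9 and 7 of the 12, and for 45.8%, 52.2% and 50.2% of all kept probes. The median log2 fold change of the 12 probes was 0.76, 0.62 and 0.03 in these comparisons, beside 0.01, -0.003 and 0.01 over all kept probes. The comparisons share arrays, and the genes were chosen with them in view, so nothing is read from these counts. Probes whose arrays fell strictly in the order Th9, Th17, Th1 made up 2.27% of kept probes and 4 of the 12 here, those of Egr1, Egr2 and Egr3 and the brightest of Dusp6. The order Th9, Th1, Th17 was held by 4.04% and by the 2 brighter probes of Dusp4.

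**Figure D3:**
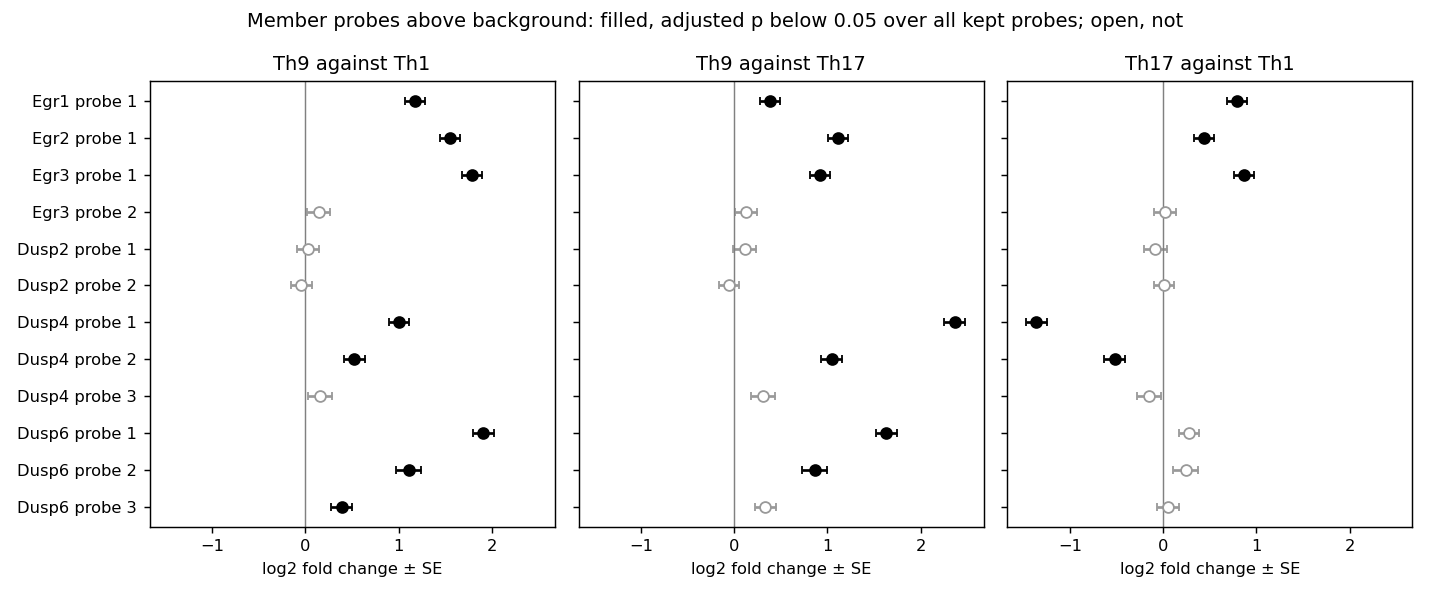
Log2 fold change (offset 50) with its standard error for the 12 kept member probes in the 3 comparisons; filled points passed at an adjusted p under 0.05 over 22460 probes, open points did not. Against Th1 the brightest probes of Dusp6 (1.91) and Egr3 (1.79) lie furthest right, against Th17 the brightest Dusp4 probe does (2.37), and in Th17 against Th1 the 2 brighter Dusp4 probes lie left of 0.

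The offset shrinks the fitted differences of dim probes, so plain ratios are given beside them. In deposited intensity the mean of the 2 Th9 arrays over that of the 2 Th1 arrays was 3.84 for Egr1, 7.06 for the brighter Egr3 probe, 5.27 for the brightest and 6.32 for the middle Dusp6 probe, and 3.04 and 3.07 for the 2 brighter Dusp4 probes. So these probes of Dusp6, at 1.91 against 1.11 in the fitted log2 values, and of Dusp4, at 1.0 against 0.52, were close to each other as plain ratios. The Egr3 probes still differed in Th9 against Th1 without background correction, at 2.38 and 1.04, the dimmer with 1 Th1 array above background. Between Th9 and Th17 the ratio was 11.2 for the brightest Dusp4 probe, 3.07 for that of Dusp6, 4.49 for Egr2, 2.04 for Egr3 and 1.31 for Egr1. These ratios carry no array scaling and no test.

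**Figure D4:**
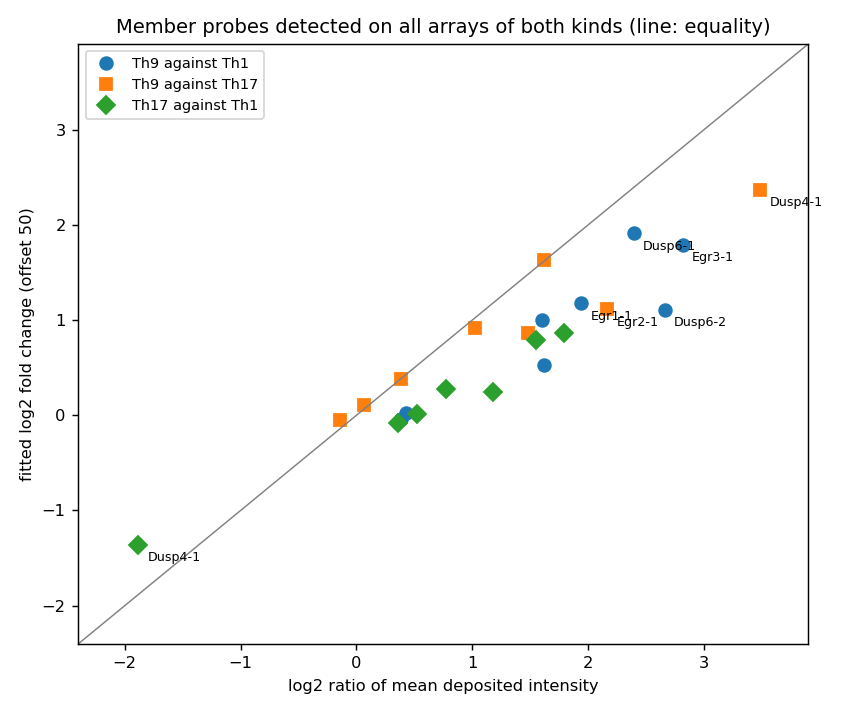
Fitted log2 fold change (vertical axis, offset 50) against the log2 ratio of mean deposited intensity (horizontal axis) for member probes above background on all 4 arrays of a comparison; the line marks equality and labels give the gene and the probe's rank in brightness. Most differences are smaller in the fit, most of all for the middle Dusp6 probe in Th9 against Th1, at 1.11 against 2.66.

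Patterns like that of the Egr factors were looked for over all 6 arrays, by Pearson correlation with the mean log2 level of Egr1, Egr2 and Egr3, among 604 kept genes whose level ranged over at least 1 log2 unit. The 5 most alike were Il4, the type 2 helper cytokine (r = 0.996), Tiam1, an activator of the GTPase Rac (0.996), Tnfrsf13b, the receptor TACI (0.996), Tgfbr1, a transforming growth factor beta receptor chain (0.995), and Gata3, a transcription factor that directs type 2 helper differentiation (0.995). Il4 was not above background on either Th1 array. These correlations describe 6 arrays in 3 kinds and reflect the order of the kinds, and 44 of the 604 genes exceeded 0.9. Tiam1, for example, read 724 and 804.7 units in Th9, 357.2 and 337.5 in Th17 and 135.7 and 124 in Th1. Dusp6 ranked 25 (0.94) and Dusp4 ranked 194 (0.46).

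The rest of the pathway was described from lists drawn up with earlier results of these arrays known, with each gene read on its brightest kept probe. Over all 12095 kept genes, 5.43% were higher and 4.64% lower in Th9 than in Th1, 9.63% and 8.56% in Th9 than in Th17, and 7.14% and 7.04% in Th17 than in Th1. Of 24 genes of the ERK cascade itself, from the adaptor Lat through Ras, Raf and Mek to Elk, Srf and Ets factors, 18 were measured. Against either other kind, 0 passed as higher and 2 as lower in Th9 by limma, and at an unadjusted p under 0.05 there were 4 against Th1 and 7 against Th17. With arrays scaled to their median, 2 were higher and 0 lower than in Th1. In limma's test with Benjamini-Hochberg adjustment, Lat was lower in Th9 than in Th17 (-0.90 ± 0.13, adjusted p = 2.8e-05; its 1 other kept probe did not pass), as was Ets1, an ERK-responsive transcription factor (-0.90 ± 0.11, adjusted p = 4.64e-06). Rasgrp2, an activator of Ras-family GTPases, was lower in Th9 than in Th1 (-0.69 ± 0.13, adjusted p = 0.000985), while the Mapk3 probe, for ERK1, fell short of background on both Th9 arrays and gave a fold of at least 1.07 in favour of Th1 (adjusted p = 0.0289). The median of the list was -0.02 against Th1 and -0.05 against Th17, beside 0.01 and -0.003 over all kept probes.

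Of 13 measured genes that restrain Ras or its activator diacylglycerol, 4 were higher in Th9 and 6 lower when set against Th1, and 1 was higher and 5 lower when set against Th17. The lower calls against Th1 depend on the processing: with arrays scaled to their median 4 were higher and 1 lower, with an offset of 16 there was 1 of each, and without background correction 0 of each. Against Th17, 5 were lower with arrays scaled to their median, 3 with an offset of 16 and 2 without background correction. Rasa3, a GTPase-activating protein that turns off Ras-family proteins, was lower in Th9 than in Th17 (-2.02 ± 0.12, adjusted p = 1.86e-10 by limma) and than in Th1 (-0.88 ± 0.12, adjusted p = 2.91e-05). Dgka, a kinase that consumes diacylglycerol and is known in mouse as repressed on activation and as a target of Egr2, was lower in Th9 than in Th17 (-1.35 ± 0.11, adjusted p = 4.57e-08). Rasa2 (0.58 ± 0.12) and Dok2, an adaptor that recruits Ras inhibitors (0.59 ± 0.12), were higher in Th9 than in Th1, while Cblb, a ubiquitin ligase that limits T cell activation and is known as an Egr2 and Egr3 target in mouse, was lower (-0.69 ± 0.13). In the comparison with Th1, 0 of 2 other kept Rasa2 probes, 0 of 1 other Cblb probe and 0 of 1 other Rasa3 probe passed in the same direction, whereas the other Rasa3 probe and the other Dgka probe did so against Th17.

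Of 13 other dual-specificity phosphatases measured, Th9 had 2 higher and 0 lower against Th1, and 3 higher and 0 lower against Th17. At an unadjusted p under 0.05 in limma these were 4 and 6 in either direction. Over the other settings the higher counts ranged from 0 to 5 against Th1 and from 0 to 3 against Th17, lowest without background correction. Dusp3, a small phosphatase known to act on ERK and JNK, was higher than in Th1 (0.71 ± 0.11) and than in Th17 (0.56 ± 0.11). Dusp19 (0.85 ± 0.11) and Dusp22 (0.46 ± 0.12) were also higher in Th9 than in Th17, but did not pass against Th1. Dusp22 had 1 Th17 array above background. Dusp7, another cytoplasmic phosphatase selective for ERK, was higher in Th9 than in Th1 (0.41 ± 0.11) but read 506.1 and 471.5 units in Th17, above the 342.8 and 452.6 of Th9. Of 4 other Sprouty and Spred genes measured, 0 passed in limma in the 3 comparisons, and 1 had an unadjusted p under 0.05, in Th9 against Th17. Of 4 relatives and corepressors of Egr and Nr4a factors, 1 passed, in 1 comparison: Nab1, a corepressor that binds Egr proteins, was higher in Th17 than in Th1 (0.35 ± 0.11, adjusted p = 0.043 by limma). Of the 5 other kept Nab1 probes 0 passed in that direction. The count of this list higher in Th17 than in Th1 fell to 0 without background correction and with an offset of 16. The count higher in Th9 than in Th1 was 0, and 1 with an offset of 16 or with arrays scaled to their median. Nr4a3 read 14.5 and 17.4 units in Th9 and at most 3.6 elsewhere, above background on the Th9 arrays only, and did not pass.

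Of 19 other immediate early genes measured, 4 were higher and 1 lower in Th9 when set against Th1, and 2 were higher and 4 lower when set against Th17. Between Th17 and Th1, 5 were higher in Th17 and 0 lower in limma (10 differed at an unadjusted p under 0.05). With arrays scaled to their median, 6 were higher and 0 lower in the first comparison and 7 higher and 0 lower in the last. Without background correction 0 were higher in the first comparison and 1 in the last. With an offset of 16, 2 were higher in the first. Fos, an AP-1 subunit, read 76.6 and 82.9 units in Th9, 68.4 and 83.8 in Th17 and 6.4 and 1.4 in Th1, so that Th9 and Th17 overlapped and both stood above Th1 (1.05 ± 0.11 for Th9). Only 1 Th1 array was above background for Fos, so the size of its difference to Th1 rests on the offset. Junb, another AP-1 subunit, was higher in Th9 than in Th1 (0.76 ± 0.13) and than in Th17 (0.60 ± 0.13). Zfp36, an RNA-decay factor, was lower in Th9 than in Th17 (-1.24 ± 0.11), as was Ier3 (-0.72 ± 0.11).

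Of 21 measured genes known to respond to T cell activation, Th9 showed 10 higher and 1 lower against Th1, and 12 higher and 2 lower against Th17. Nrgn, a calmodulin-binding protein, read 248.2 and 213.3 units in Th9 and between 2.6 and 11.8 on the other 4 arrays. The difference was 2.07 ± 0.12 to Th1 and 1.96 ± 0.12 to Th17. Only 1 Th1 array was above background for Nrgn, so the size of its difference to Th1 rests on the offset. Irf4, a transcription factor whose level scales with receptor signal strength, ran in the order of Dusp4, with 890.5 and 1114.8 units on the Th9 arrays, 298.2 and 261.3 in Th1 and 169.1 and 161.5 in Th17. Ndrg1, known in mouse as an Egr2-dependent gene of unresponsive T cells, stood highest in Th17, at 431.6 and 450.7 units beside 79.7 to 103.1 on the other arrays, and did not pass between Th9 and Th1 (-0.14 ± 0.11). No list of Egr2 or Egr3 targets was drawn up, so Dgka, Cblb and Ndrg1 do not show how such targets ran. Tnfrsf4 (1.29 ± 0.11, 1.89 ± 0.11), Tnfrsf18 (1.03 ± 0.11, 1.55 ± 0.11) and Icos (1.15 ± 0.13, 0.78 ± 0.13) were higher in Th9 than in Th1 and Th17, in that order. The list's median was 0.31 against Th1 and 0.52 against Th17.

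**Figure D5:**
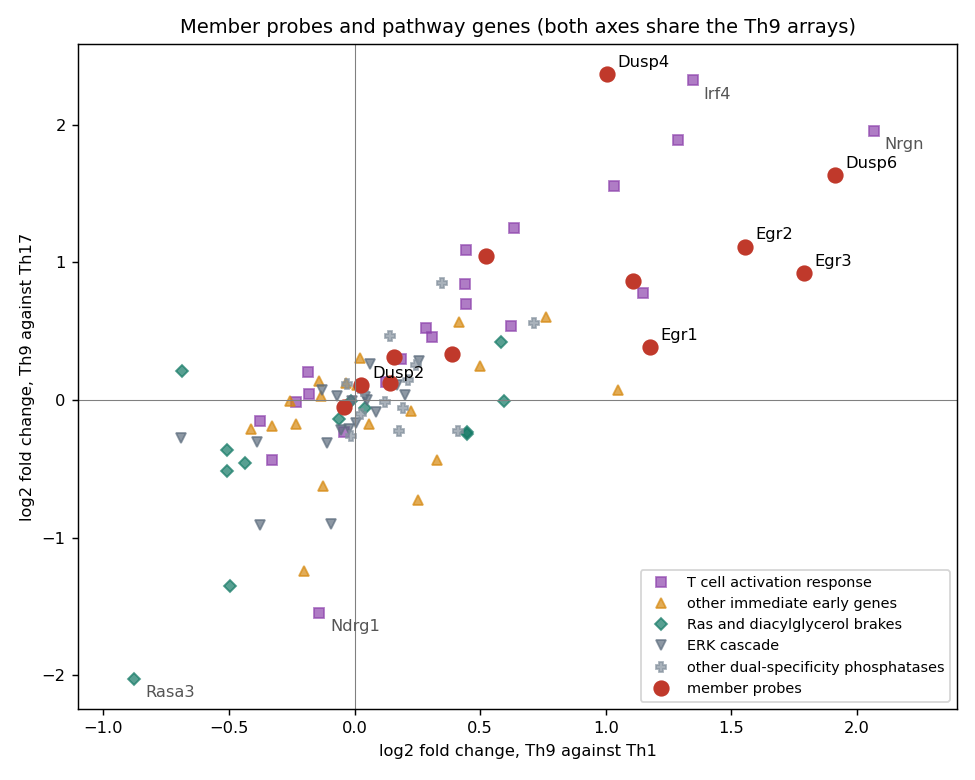
Log2 fold change of Th9 against Th1 (horizontal) and against Th17 (vertical) for the 12 kept member probes (circles) and for genes of 5 pathway lists on their brightest probe; the axes share the Th9 arrays, so points tend toward the diagonal by construction. Dusp4, Dusp6 and the Egr factors lie in the upper right with Irf4 and Nrgn, the ERK cascade genes lie near or below 0, and Rasa3 lies lowest.

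Several values bear on how these levels may be read. Heat shock genes, which respond to the handling of cells, passed in 0 of 9 measured cases between Th9 and Th1 in limma (1 at an unadjusted p under 0.05), and 4 were higher in Th9 than in Th17, among them Hspe1 (0.51 ± 0.12). That count was 0 with arrays scaled to their median, with an offset of 16 and without background correction. Summed over 7 T cell markers, intensity was highest for Th17, whose arrays reached 29329 and 27800 units. The Th9 sums (19524, 21168) overlapped the Th1 sums (21920, 18003). Cd3e (-0.36), Cd3d (-0.45) and Cd2 (-0.54) passed as lower when Th9 was set against Th17, whereas Cd3g, Cd4, Cd247 and Thy1 did not pass. Cd2 passed as higher when Th9 was set against Th1 (0.41). The Cd4 probe read only 24.1 to 94.1 units. The sum of 5 cytotoxic and NK markers was 1172 and 1260 on the Th9 arrays, 1178 and 1038 on the Th1 arrays and 723 and 559 in Th17, nearly all from the Cd8b1 probe, with Cd8a and Ncr1 above background on 0 arrays. Over 6 measured B cell markers the sum was 2055 and 2602 units on the Th9 arrays, 2021 and 1896 in Th1 and 1243 and 1192 in Th17. Most of it came from Ighm and Igkc. Igkc read 61.9 and 65.9 units in Th17 and at least 952.3 on the other arrays. Ighm went the other way, at 1139.7 and 1067.3 units in Th17, 784.9 and 803.8 in Th1 and 630.5 and 705.5 in Th9. It passed as lower in Th9 than in Th1 (-0.52) and than in Th17 (-0.57). Pax5 was at background on all arrays and Ms4a1 on all but 1. Cd79b, a chain of the B cell receptor, read 232 and 289.1 units on the Th9 arrays, 139 and 117.1 in Th1 and 42.7 and 53.3 in Th17, the order of Dusp4, and passed as higher in Th9 against Th1 (0.45) and Th17 (1.55). The myeloid sum of 10 markers lay between 186 and 278 units with overlapping kinds, and Itgam, Cd14 and Itgax were at background throughout. Adgre1, the macrophage marker F4/80, read 34.1 and 21.3 units in Th9 and at most 0.9 on the other arrays. It was above background on the 2 Th9 arrays only and was kept through them. Its higher calls against Th1 (0.50) and Th17 (0.51) rest on that filter, and their sizes on the offset. Mpeg1, another macrophage marker, passed as lower in Th9 than in Th1 (-0.69). Over 4 erythroid markers the sum was 610.6 and 661.4 in Th9, mostly from Hba-a1, and at most 127.6 elsewhere, with Alas2 at background. Hba-a1 passed as higher in Th9 than in Th1 (2.99) and Th17 (2.83), as did Hbb-b1 (0.63 and 0.40). Slc4a1 did not pass and read 76.5 units on the second Th17 array, which had the sum of 127.6. The part of these other transcripts in the Egr and Dusp differences was not tested, and in sorted bulk cells a larger share of cells with a transcript and more of it per cell cannot be told apart.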

How the data were processed

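The deposited value table holds linear probe intensity for 45281 probes on 6 arrays. Per the labels, biotinylated cRNA made from total RNA was hybridised; the background and scaling that the authors applied to these intensity values are not given in the sources used here, and values centre near 0 (medians 3.7 to 4.8), as after background subtraction. Another deposited table holds 12 columns whose coded names could be tied to no sample label, and these were left out.

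Intensities were corrected by normexp (offset 50), quantile normalized and log2 transformed. A probe was above background when it exceeded 1.645 noise units, a noise unit being the root mean square of an array's values below 0, and probes above it on at least 2 arrays (22460) were kept. Between 41 and 45.2% of probes were above background per array; the number of arrays limits precision. A linear model over all 6 arrays was fitted per probe with limma 3.58.1 in R 4.3.3 (3 residual and 15.7 prior degrees of freedom). The fit was also run on simulated normal values with planted differences. These follow the model being fitted, so they do not test the background correction, the normalization or the spread between animals.

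Alternatives tried were no background correction, an offset of 16, median scaling, no normalization, other filters on dim probes, 1 probe per gene, an intensity trend in the prior variance, only the arrays compared, the repeat label as a block, and leaving out each array.

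Probes were named through RefSeq gene identifiers, accessions, symbols or synonyms. Every member probe is reported. Genes of the lists were taken from the up to 4 called with the largest change in a comparison, and some of these were left out. Ndrg1 between Th9 and Th1 was named after its values were seen. Of similar patterns, the 5 with the highest correlation are given. The members and lists were chosen with earlier results of these data known. The repeats of a kind correlated at 0.9915 to 0.9942 across kept probes, against 0.9714 to 0.9810 between kinds.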

Additional observations from a re-analysis of the deposited data

How the results depend on the processing

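Counts over all kept probes moved with the processing. They are not set against the member calls, since the members were chosen with earlier results known. For Th9 against Th1 the 1770 calls became 261 without background correction, 964 with an offset of 16 and 2822 with no normalization between arrays, and 1070 to 1786 when an array was left out. For Th9 against Th17 the 3357 calls became 749 without background correction and 2228 with an offset of 16, and 2046 to 2271 when an array was left out. For Th17 against Th1 the 2642 calls became 387 without background correction, 1531 with an offset of 16, 4078 with arrays scaled to their median and 4756 with no normalization between arrays, and 1403 to 2627 when an array was left out. Scaling to the median moved the median of all kept probes from 0.01 to 0.11 (Th9 against Th1) and to 0.13 (Th17 against Th1), and with it the split to 2084 higher and 272 lower, and 3700 higher and 378 lower, from 918 and 852, and 1345 and 1297.

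Among member probes, 0 called values changed sign in any setting. Of 8 called in Th9 against Th1, 3 passed in every setting tried (Egr1, the brighter Egr3 and the brightest Dusp6 probe), as did 4 of 7 against Th17 (the brighter Egr3, 2 Dusp4 and the brightest Dusp6 probe) and 1 of 5 in Th17 against Th1 (the brightest Dusp4 probe). Without background correction, which floors intensity at 1 unit, 3, 4 and 1 member probes passed. Egr1 against Th17 passed in 7 of 14 settings and lay between 0.31 and 0.46; its call ended without Th9 replicate 1, Th9 replicate 2 or Th17 replicate 1 and with arrays scaled to their median. Egr2 in Th17 against Th1 did not pass without Th1 replicate 1 or Th17 replicate 2 (0.39 and 0.35). The count of activation genes higher in Th9 than in Th1 ranged from 2 to 13.

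After normalization, deviations of same-labelled arrays correlated at -0.022, -0.028 and 0.019, so no shared effect of the repeat label was seen. Normalization removes shifts of a whole array, so these values cannot tell whether same-labelled arrays were made together. With it as a replicate block the counts were 1712 for Th9 against Th1, 3271 for Th9 against Th17 and 2578 for Th17 against Th1, with 8, 7 and 5 member probes passing. The cause of these changes was not tested. With 2 arrays per kind, small differences on dim probes cannot be settled.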
